A study of Mus musculus with 21 samples.

Results

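Type IIx myonuclei were 1161 of the 87822 cells in the single-cell tables of this series, or 1.32%. The annotation used was made after Harmony integration of the paper's whole collection of samples, which holds single-cell and single-nucleus data beyond this series. A cell was counted as type IIx when that annotation named it a type IIx myonucleus. It also had to have no myogenic state assigned on the differentiation trajectory. The 4 states that excluded a cell were quiescent muscle stem cell, activated muscle stem cell, committed myoblast and fusing myocyte. Of 1163 cells with the type IIx name, 2 were fusing myocytes and were left out. Type IIb myonuclei, chosen by the same rule, numbered 2628, and 54 cells with the type IIb name carried a state and were left out.

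Type IIx fibers are fast-twitch fibers of limb muscle that carry the myosin heavy chain encoded by Myh1, and in contraction speed and metabolism they lie between the more oxidative type IIa and the glycolytic type IIb fibers. Each fiber is a long syncytium with many myonuclei, which transcribe contractile and metabolic genes such as Acta1, for skeletal alpha actin, and Ckm, for muscle creatine kinase. A whole adult fiber is far larger than a droplet. Toxin injury lyses fibers, and new ones form from muscle stem cells over the following days.

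The study profiled regenerating mouse muscle over the first week after injury. The samples were tibialis anterior (TA) muscles of female C57BL/6J mice aged 20 months, with 1 mouse per sample. Notexin, a snake-venom phospholipase that destroys fibers, was injected into both TA muscles, and whole muscles were dissociated and captured with 10x Chromium v3 chemistry as cells, not as isolated nuclei. Muscle without injury came from 4 mice. After injury, muscle was taken on day 1 (1 dpi, for days post-injury) from 4 mice, on day 2 from 3, on day 3.5 from 4, on day 5 from 3 and on day 7 from 3. All the mice were old, so nothing here speaks of young muscle. Replicates are named by the letters of their labels.

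Myh1, Acta1 and Ckm were the markers set for the type IIx name. Per-gene values were not used here, so the name was not checked against them, and "type IIx" below means cells to which that name had been given. The per-cell tables hold totals of unique molecular identifiers (UMIs, tags that count captured transcripts), numbers of genes, and percentages of UMIs from sets of genes.

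Summed over cells, the uninjured libraries held 14993989, 15988590, 21383812 and 5602464 UMIs in replicates A to D. The libraries of 1 dpi held 28053655, 8812211, 39642277 and 38088706, and those of 2 dpi held 53598557, 41515434 and 33573346. At 3.5 dpi the totals were 47869078, 43745722, 70730171 and 47831966. These are sums over the cells kept, so they depend on the number of cells, and they were lower in uninjured muscle than in most injured muscle. Sequencing saturation had a mean of 64.5% ± 16.9 (n = 4) uninjured and 49.8% ± 15 (n = 17) injured. At 5 dpi the totals were 44458255, 54638635 and 27305762, and at 7 dpi they were 38755533, 37217749 and 18655892.

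A few libraries stood apart. In 1 dpi replicate B, 47.7% of reads lay in cells, inside the uninjured range of 44.2% to 56.3%, while the other injured libraries lay between 66.5% and 94.8%. In 1 dpi replicate C no cell was type IIx. In uninjured replicate D, 35 of 59 type IIx cells (59.3%) had no mitochondrial UMI left after subtraction of ambient RNA. The count was 0 of 123 in replicate B, 0 of 73 in replicate C and 4 of 158 in replicate A. Results that turn on these mice are given with and without them. Of the 1161 type IIx barcodes, 19 were also seen in another library, and 0 were shared by a pair of type IIx cells.

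The first comparison asked how the share of type IIx myonuclei among all cells moved through the injury week. In uninjured muscle, replicates A to D held 158, 123, 73 and 59 type IIx cells, which made 6.97% (95% Clopper-Pearson interval 5.96 to 8.10), 3.60% (3.0 to 4.28), 1.45% (1.14 to 1.82) and 6.06% (4.64 to 7.74) of cells. The uninjured mice differed from each other by more than these intervals, which cover counting error only. At 1 dpi, replicates A, B and D held 34, 70 and 23 type IIx cells, or 1.17% (0.810 to 1.63), 5.85% (4.59 to 7.33) and 0.599% (0.380 to 0.898). Replicate C held 0 of 4530 cells, with an interval of 0 to 0.0814%, and 3 cells there would have been 0.0662%. Replicate B lay with the uninjured mice and the other 3 mice of 1 dpi lay below all of them.

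At 2 dpi the counts were 16, 16 and 46, for shares of 0.152% (0.0867 to 0.246), 0.348% (0.199 to 0.564) and 1.44% (1.06 to 1.92). At 3.5 dpi they were 37, 12, 25 and 8, for 1.18% (0.833 to 1.63), 0.456% (0.236 to 0.795), 0.371% (0.240 to 0.547) and 0.205% (0.0887 to 0.404). All 7 mice of these times lay below the lowest uninjured mouse, though 2 dpi replicate C came close to uninjured replicate C. At 5 dpi the counts were 71, 24 and 67, for 1.33% (1.04 to 1.68), 0.283% (0.182 to 0.421) and 2.52% (1.96 to 3.19). At 7 dpi they were 93, 106 and 100, for 1.56% (1.26 to 1.91), 2.50% (2.05 to 3.02) and 4.42% (3.61 to 5.35). All 7 dpi mice and 5 dpi replicate C were inside the uninjured range.

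The mean ± SD of uninjured muscle was 4.52% ± 2.49 (n = 4), and that of 1 dpi was 1.90% ± 2.67 (n = 4), 2.37-fold lower. The mean of 2 dpi was 0.648% ± 0.697 (n = 3), 6.98-fold below uninjured muscle, and that of 3.5 dpi was 0.553% ± 0.432 (n = 4), 8.17-fold below it. By 5 dpi the mean stood at 1.38% ± 1.12 (n = 3), 3.27-fold lower, and by 7 dpi at 2.82% ± 1.46 (n = 3), 1.60-fold lower. These folds turn on single mice. Without replicate B the 1 dpi mean was 0.589%, 7.68-fold below uninjured muscle, and without replicate C it was 1.78-fold below. Without replicate C the 2 dpi mean was 0.250%, 18.1-fold below, and without replicate A 5.04-fold below. Leaving out a mouse gave 6.75-fold (without D) to 13.1-fold (without A) for 3.5 dpi, 2.34-fold (without B) to 5.59-fold (without C) for 5 dpi, and 1.31-fold (without A) to 2.23-fold (without C) for 7 dpi. Neighbouring time points overlapped in every case, uninjured and 1 dpi included.

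Taken over all injured mice, the type IIx share was 1.43% ± 1.61 (n = 17) against 4.52% in uninjured muscle. It fell by 3.09 percentage points (two-sided exact permutation test on the arcsine square root of shares, 17 against 4 mice, p = 0.00869, Benjamini-Hochberg adjusted p = 0.0182 over 23 cell types). In that comparison 17 of the 23 types (73.9%) passed the adjusted threshold of 0.05, so a changed share was the usual case. A lower share is not a lower number of cells, since other cells enter injured muscle. The call was lost without uninjured replicate A (-2.27 points, exact permutation test, adjusted p = 0.0731) or without uninjured replicate D (-2.57 points, adjusted p = 0.0580), while without 1 dpi replicate B the difference was -3.36 points (adjusted p = 0.00633) and without 1 dpi replicate C -3.0 points (adjusted p = 0.0198).

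The choice of denominator bore on this result. Among non-immune cells, type IIx cells made 7.15%, 3.75%, 1.49% and 6.22% in the uninjured mice, a mean of 4.65% ± 2.55, against 3.29% ± 2.51 over the 17 injured mice. The injured and uninjured mice overlapped broadly, and the difference was -1.36 points (exact permutation test, adjusted p = 0.458). Among cells with a myogenic label, type IIx made 29.0%, 25.2%, 25.9% and 41.8% uninjured, and 14.6% ± 8.69 after injury, a difference of -15.8 points (adjusted p = 0.0331). At 3.5 dpi this share was 16.6%, 7.74%, 5.53% and 3.24%, all below every uninjured mouse. As a percentage of the barcodes called before filtering, a denominator chosen after seeing the data, the difference was -0.896 points (adjusted p = 0.158). The part of the library filtered out before deposit moved with the groups: 40.7%, 25.3%, 44.2% and 49.5% of called barcodes remained in the uninjured tables, against a mean of 72.7% ± 7.91 (n = 17) after injury.

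Over the 6 time points, the largest difference from uninjured muscle was -3.97 points at 3.5 dpi, and the time course did not pass (F permutation test, 100000 resamples, p = 0.0639, adjusted p = 0.0668). In the same test 18 of 23 types (78.3%) passed. The time course of type IIx cells did pass without 1 dpi replicate B (-3.97 points, adjusted p = 0.0128), without uninjured replicate C (-4.99 points, adjusted p = 0.0378) and without 1 dpi replicate C (-3.97 points, adjusted p = 0.0410).

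Each time point was also set against uninjured muscle alone. None of the 5 passed for type IIx cells, and 0 of 115 tests (0%) passed over the 23 types and 5 time points by the exact permutation test. With 4 against 4 or 3 mice the smallest p is 0.0286, and the smallest adjusted p of any type was 0.0505, so this family could hardly pass. At an unadjusted p under 0.05, 65 of the 115 tests and 1 of the 5 for type IIx cells would pass: 3.5 dpi had an exact permutation p of 0.0286 and an adjusted p of 0.0505. The counts for type IIx by the other methods were 3 with a centred log ratio, 2 with edgeR without TMM scaling and 4 with edgeR with TMM. Without 1 dpi replicate B the exact permutation test called 1 time point, 3.5 dpi, at an adjusted p of 0.0483.

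A further comparison asked whether the share of type IIx cells was higher late than early in the injury week. The mean was 2.10% over the 6 mice of 5 and 7 dpi and 1.07% over the 11 mice of 1 to 3.5 dpi. The difference of 1.03 points did not pass (two-sided exact permutation test, p = 0.106, adjusted p = 0.152), while 12 of 23 types (52.2%) did. Without 1 dpi replicate B it was 1.51 points and passed (exact permutation test, adjusted p = 0.0165), and without 7 dpi replicate C it was 0.570 points (adjusted p = 0.314). Among myogenic cells the late share was lower, by -1.29 points (adjusted p = 0.932).

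**Figure D1:**
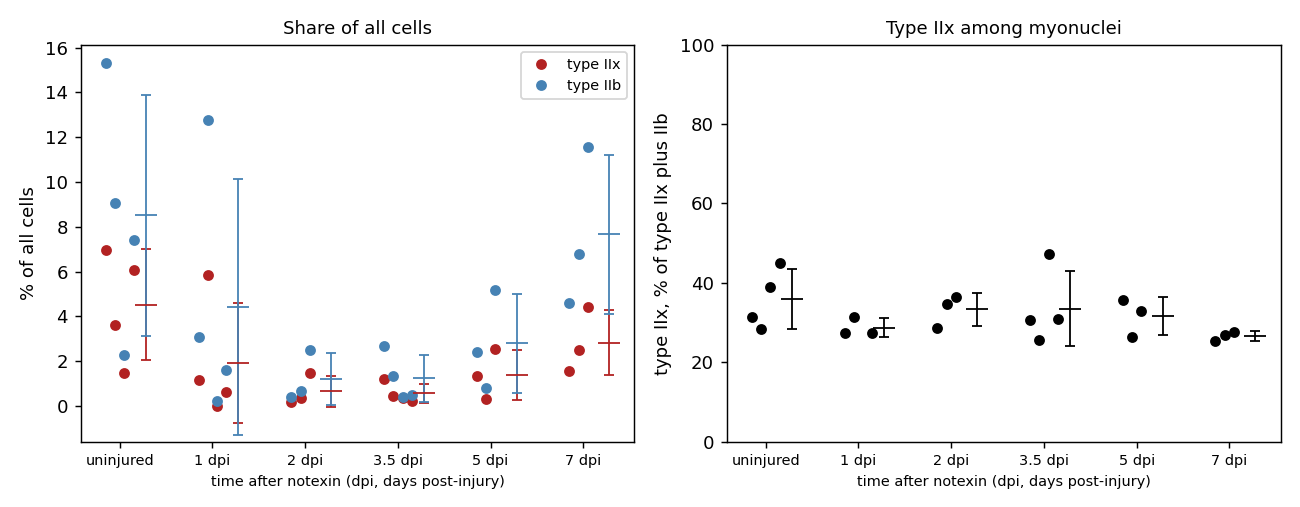
Left, type IIx (red) and type IIb (blue) myonuclei as a percentage of all cells of each mouse, by time after notexin, with the mean and SD beside the points of each group. Right, type IIx cells as a percentage of type IIx plus IIb cells in mice with at least 10 such cells. The group means of both shares are lowest at 2 and 3.5 dpi, the lowest single mouse is 1 dpi replicate C, 1 dpi replicate B lies with the uninjured mice, and the 7 dpi mice lie within the uninjured range of type IIx shares.

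Type IIb myonuclei, which express the fastest myosin isoform, are the most similar label. Their share was 15.3%, 9.08%, 2.27% and 7.39% in the uninjured mice and 3.38% ± 3.81 in the 17 injured mice. Mice with a high type IIx share had a high type IIb share: over 21 mice Pearson's r was 0.947 and Spearman's rho 0.957 (permutation test with 100000 resamples, p = 1e-05 for both, the smallest the permutations can give, adjusted p = 4.0e-05). The r was 0.934 with the mean of each time point removed, 0.986 among the 17 injured mice and 0.897 without uninjured replicate A and 1 dpi replicate B, the mice farthest from the median. Both shares come from the same suspension and have the same denominator.

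The fraction of type IIx among type IIx plus IIb myonuclei does not depend on other cell types. It was 31.3%, 28.4%, 39.0% and 45.0% in uninjured muscle, 27.4%, 31.4% and 27.4% in 1 dpi replicates A, B and D, and 28.6%, 34.8% and 36.5% at 2 dpi. It was 30.6%, 25.5%, 47.2% and 30.8% at 3.5 dpi, 35.7%, 26.4% and 32.8% at 5 dpi, and 25.3%, 26.9% and 27.6% at 7 dpi. The 3 mice of 7 dpi all lay just below the lowest uninjured mouse. So did 1 dpi replicates A and D, 3.5 dpi replicate B and 5 dpi replicate B, and the other injured mice lay inside the uninjured range or, in 3.5 dpi replicate C, just above it. In 1 dpi replicate C the only myonuclei were 9 type IIb cells, under the minimum of 10, and it was left out.

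The mean fraction was 35.9% ± 7.54 (n = 4) uninjured and 30.9% ± 5.63 (n = 16) after injury, a difference of -5.02 points that did not pass (two-sided exact permutation test, p = 0.141). The time course did not pass either, with its largest difference of -9.34 points at 7 dpi (permutation test of F, p = 0.412). The injury difference passed without uninjured replicate B (-7.53 points, exact permutation p = 0.0423), without 3.5 dpi replicate C (-6.10 points, p = 0.0299), and when only cells with at least 750 genes were counted (-12.7 points, p = 0.00991). Without uninjured replicate D it was smaller, at -1.99 points (exact permutation test, p = 0.572).

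The split between type IIx and IIb also depended on the annotation used. In the labels given before filtering, 1809 cells were type IIx, and of these 1144 were type IIx and 617 type IIb after Harmony integration. By those earlier labels type IIx made 43.0%, 42.8%, 47.9% and 52.7% of type IIx plus IIb cells in the uninjured mice and 51.2%, 94.1%, 94.9% and 91.4% at 3.5 dpi. Replicates B, C and D of 3.5 dpi thus stood far above every uninjured mouse, with 3 type IIb cells each. The largest difference became 36.3 points higher at 3.5 dpi, the reverse of the direction under Harmony (permutation test of F, p = 0.0112), and the injury difference 8.79 points higher (exact permutation test, p = 0.472). These labels were compared after seeing the data. The share of type IIx among all cells fell under them too, by 3.73 points (exact permutation test, adjusted p = 0.0236).

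The other integrations did not part the 2 labels. BBKNN placed 1150 of the 1161 cells in a general class named for myonuclei of the cell preparation and 11 in type IIx, and Scanorama placed all 1161 in that general class. Every type IIx cell had a mature muscle label in both, 100% in each of the 20 mice with at least 5 type IIx cells, so the test of that percentage had no variation to work on (exact permutation test, p = 1). All 1161 cells also fell in 1 cluster of the deposited clustering, which held 2588 type IIb cells among its 4003.

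Type IIx cells were small in captured RNA. The median cell had 2753 UMIs, with quartiles of 1739 and 4618, and 880 genes, with quartiles of 657 and 1223, while the median over 84033 cells of other types was 6445 UMIs and 2252 genes. Among the 23 types, by mean of per-mouse medians, type IIx had the third lowest UMIs, after type IIb myonuclei and neutrophils, and the second lowest number of genes. It had the lowest mitochondrial percentage, 2.09% against 13.5% in the highest type, neural cells, and the lowest percentage from transcription factor genes, 1.71% against 5.48% in arterial endothelial cells. Type IIb was next in both, at 2.34% and 1.85%, so these are traits of both labels, and the mitochondrial percentage was higher in type IIx than in type IIb in 11 mice and lower in 8. These ranks are descriptions, since the types were themselves defined from expression.

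The measures of each cell were summarized as a median per mouse with at least 5 type IIx cells, which left out 1 dpi replicate C. Of 13 deposited measures, the percentages from snoRNA, miRNA and snRNA had medians of 0 and 10 were tested. Between injured and uninjured muscle 4 of the 10 passed (40%), with 5 at an unadjusted p under 0.05. Over the time course 7 passed (70%). With the replicate letter as a block 0 passed over time (permutation test, 5 at an unadjusted p under 0.05).

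UMIs per type IIx cell fell after injury. The median was 5527, 3382, 2519 and 3362 UMIs in uninjured replicates A to D, 2257, 2516 and 1799 at 1 dpi, and 1606, 2340 and 2336 at 2 dpi. It was 2118, 1693, 1614 and 2181 at 3.5 dpi, 2753, 1510 and 1895 at 5 dpi, and 2352, 2389 and 2701 at 7 dpi. Of the 16 injured mice 14 lay below the lowest uninjured mouse, and 5 dpi replicate A and 7 dpi replicate C lay just above it. The group means were 3698 ± 1284 (n = 4) and 2129 ± 397 (n = 16), and the mean log2 value fell by 0.76, or 1.70-fold (two-sided exact permutation test, p = 0.000619, adjusted p = 0.00619). Without uninjured replicate A the value was -0.55 (exact permutation test, adjusted p = 0.0619), and with cells of at least 750 genes -0.47 (adjusted p = 0.0645).

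Type IIb medians averaged 2543 ± 447 UMIs (n = 4) uninjured and 2069 ± 351 (n = 17) injured. Pooled cells other than the myonuclei, whose mix of types differs between the groups, held more UMIs after injury. In uninjured mice their median was 4925, 4094, 3140 and 3879 UMIs, and over the 17 injured mice it had a mean of 8365 ± 2972. Only 2 dpi replicate A, with 3892 UMIs, lay in the uninjured range. Among 19 types with a value in both conditions, 11 had a higher median of UMIs after injury and 8 a lower one, with a median difference of 0.13 on the log2 scale, and the difference in type IIx was the lowest of the 19, as a description. Whether library depth had a part in these values was not tested.

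Genes per type IIx cell had medians of 1304, 910, 782 and 1010 uninjured, a mean of 1001 ± 222 (n = 4), and a mean of 793 ± 89.0 (n = 16) after injury, with a lowest value of 665, a median of 816 and a highest of 982. Only 7 of the injured mice lay below the lowest uninjured mouse. The mean log2 value fell by 0.32 (two-sided exact permutation test, p = 0.0103, adjusted p = 0.0315). The call was lost without uninjured replicate A (-0.19, adjusted p = 0.169), B (-0.36, adjusted p = 0.0654) or D (-0.31, adjusted p = 0.0602), and in cells with at least 750 genes (-0.12, adjusted p = 0.336). In cells of like depth, those with 1500 to 3000 UMIs, a window chosen after seeing the data, genes per cell averaged 735 ± 20.5 (n = 4) uninjured and 777 ± 72.4 (n = 15) injured, and the log2 difference turned to 0.08 (exact permutation test, adjusted p = 0.407). That window held 131 uninjured and 331 injured cells.

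Cells with few genes took a larger part of the type IIx label after injury. In all, 425 of the 1161 type IIx cells had under 750 genes, 99 of them uninjured and 326 injured. The paper's methods set that number as the minimum for a cell, so the tables hold cells that the filter as described would have removed. The percentage with under 750 genes was 15.2%, 25.2%, 42.5% and 22.0% in the uninjured mice, 38.2%, 34.3% and 43.5% at 1 dpi, and 56.2%, 37.5% and 32.6% at 2 dpi. It was 54.1%, 66.7%, 60.0% and 37.5% at 3.5 dpi, 36.6%, 62.5% and 55.2% at 5 dpi, and 38.7%, 41.5% and 45.0% at 7 dpi. Uninjured replicate C lay among the injured mice and the other 3 uninjured mice lay below all of them. The mean rose from 26.2% ± 11.6 (n = 4) to 46.3% ± 11.1 (n = 16), by 20.0 points (two-sided exact permutation test, p = 0.00433). In cells of other types than the myonuclei it was 3.97% ± 2.29 (n = 4) and 4.59% ± 2.45 (n = 17). Type IIb cells had few genes too, with a median of 793 and a lower quartile of 615 over all 2628 cells. Their per-mouse medians averaged 782 ± 71.4 (n = 4) uninjured and 788 ± 76.2 (n = 17) injured. Their percentage with under 750 genes is not given here.

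The mitochondrial percentage of type IIx cells was 5.58%, 11.5%, 7.89% and 0% in uninjured replicates A to D. It was 1.24%, 3.17% and 2.00% at 1 dpi, 1.62%, 0.789% and 2.90% at 2 dpi, and 0.0471%, 0.0867%, 0.0407% and 0.0991% at 3.5 dpi. Uninjured replicate D lay at the bottom with the injured mice, and the other 3 uninjured mice lay above every injured mouse. At 5 dpi the values were 0%, 0.423% and 0.317%, and at 7 dpi 2.54%, 0.826% and 0.824%. The mean fell by 5.17 points, from 6.23% ± 4.80 (n = 4) to 1.06% ± 1.08 (n = 16) (two-sided exact permutation test, p = 0.00392, adjusted p = 0.0196). The call was lost without uninjured replicate A (-5.39 points, adjusted p = 0.0826) or B (-3.43 points, adjusted p = 0.0654). It held without replicate D.

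This fall was shared with the other cells. Mitochondrial UMIs were lower after injury in all 19 types with a value in both conditions, with a median difference of -6.63 points against -5.17 in type IIx. Cells with no mitochondrial UMI were a feature of the myonuclear labels: they were 193 of 1161 type IIx cells (16.6%), 387 of 2628 type IIb cells (14.7%) and 141 of 84033 other cells (0.168%). The UMIs are values left after subtraction of ambient RNA, so a 0 need not mean that no mitochondrial UMI was captured. In single mice they reached 57.7% of type IIx cells in 5 dpi replicate A and 43.2% in 3.5 dpi replicate A, besides uninjured replicate D.

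Transcription factor genes, a set of genes whose products control transcription, gave 1.4%, 1.27%, 1.45% and 1.42% of UMIs in the uninjured mice. They gave 1.96%, 1.67% and 2.31% at 1 dpi, 2.13%, 2.28% and 1.82% at 2 dpi, and 1.42%, 1.73%, 1.73% and 1.53% at 3.5 dpi. Later values were 1.44%, 2.20% and 1.73% at 5 dpi and 1.62%, 1.67% and 1.51% at 7 dpi. The uninjured mice lay close together, and 14 of 16 injured mice lay above all of them. The mean rose by 0.412 points, from 1.38% ± 0.0811 (n = 4) to 1.80% ± 0.295 (n = 16) (two-sided exact permutation test, p = 0.0126, adjusted p = 0.0315), and the time course passed as well (permutation test of F, p = 0.0156, adjusted p = 0.0347). The injury call was lost without uninjured replicate A (0.416, adjusted p = 0.0826), B (0.373, adjusted p = 0.0955) or D (0.424, adjusted p = 0.0602), and in cells with at least 750 genes (0.359, adjusted p = 0.0645). It was also lost with the replicate letter as a block (adjusted p = 0.0602) and in cells with 1500 to 3000 UMIs, chosen after seeing the data (0.502, adjusted p = 0.0503). A higher percentage after injury was the usual case by type: it was higher in 13 of 19 types, with a median difference of 0.276 points, and type IIb had 1.43% ± 0.159 (n = 4) uninjured and 1.95% ± 0.332 (n = 17) injured. Pooled over all cells other than the myonuclei, whose mix of types differs between the groups, it was 4.38% ± 0.477 (n = 4) uninjured and 3.70% ± 0.628 (n = 17) injured.

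Heat shock genes, which encode protein chaperones, passed the test over the time course, but the call was easily lost. Their percentage was 0.508%, 0.467%, 0.487% and 0.637% uninjured, 1.05%, 0.603% and 1.66% at 1 dpi, and 0.908%, 1.03% and 0.600% at 2 dpi. It was 1.36%, 1.56%, 1.13% and 0.761% at 3.5 dpi, 0.873%, 0.920% and 0.766% at 5 dpi, and 0.595%, 0.575% and 0.558% at 7 dpi. All mice of 3.5 and 5 dpi lay above the uninjured mice, and all mice of 7 dpi lay among them. The largest difference was 0.679 points at 3.5 dpi (permutation test of F, p = 0.0294, adjusted p = 0.0420). The call was lost in 18 alternatives and held in 8. With single mice left out it held only without 1 dpi replicate B or D, 2 dpi replicate C or 3.5 dpi replicate D, and was lost without any other mouse. Injured against uninjured, the means of 0.935% ± 0.350 (n = 16) and 0.525% ± 0.0769 (n = 4) missed the adjusted threshold (exact permutation test, p = 0.0281, adjusted p = 0.0561). That call was gained in 5 alternatives and not in 21. Type IIb cells had means of 0.391% ± 0.0292 (n = 4) uninjured and 1.34% ± 0.653 (n = 4) at 1 dpi. Their means were 1.12% ± 0.135 (n = 4) at 3.5 dpi and 0.425% ± 0.0368 (n = 3) at 7 dpi. By type, the heat shock percentage was higher after injury in 12 of 19 types and lower in 7.

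Ribosomal protein genes and protein-coding genes as a whole had their highest means at 3.5 dpi. The ribosomal percentage was 5.87%, 6.64%, 7.05% and 8.09% uninjured and 10.3%, 8.49%, 8.35% and 9.51% at 3.5 dpi, where all 4 mice lay above the uninjured mice. So did 5 dpi replicates B and C, at 9.12% and 8.87%, and 7 dpi replicate C, at 8.25%. The difference of 2.24 points at 3.5 dpi was the largest of the time course (permutation test of F, p = 0.0174, adjusted p = 0.0347). The protein-coding percentage was 94.1%, 94.2%, 94.1% and 94.7% uninjured and 95.9%, 96.3%, 96.3% and 95.7% at 3.5 dpi, again without overlap, and 93.6%, 93.8% and 94.6% at 7 dpi. In all, 8 of 16 injured mice lay above every uninjured mouse, 1 dpi replicate D (96.1%) and 2 dpi replicate A (95.5%) among them. The largest difference of the protein-coding percentage was 1.79 points at 3.5 dpi (permutation test of F, p = 0.00267, adjusted p = 0.0267). Injured against uninjured neither passed (exact permutation tests, adjusted p = 0.106 and 0.201). Type IIb means were also highest at 3.5 dpi, at 8.9% ribosomal (6.49% uninjured) and 96.1% protein-coding (94.2% uninjured). Other cells had a protein-coding mean of 87% uninjured and their highest, 94.2%, at 3.5 dpi. Their ribosomal mean was highest at 5 dpi, at 12.2%. After injury the protein-coding percentage was higher in 18 of 19 types, with a median difference of 2.33 points against 0.659 in type IIx. The ribosomal percentage was higher in 10 types and lower in 9.

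Long intergenic non-coding RNA (lincRNA) was a small part of type IIx UMIs and had its highest mean at 7 dpi. Its percentage was 0.0918%, 0.0724%, 0.0794% and 0.0989% uninjured, 0.0858%, 0.108% and 0.0875% in 1 dpi replicates A, B and D, and 0.156%, 0.124% and 0.0877% at 2 dpi. It was 0.0946%, 0.110%, 0.141% and 0.224% at 3.5 dpi, 0.150%, 0.293% and 0.171% at 5 dpi, and 0.703%, 0.273% and 0.202% at 7 dpi. All mice of 5 and 7 dpi lay above the uninjured mice, and 7 dpi replicate A lay far above the rest. The other 7 dpi mice lay below 5 dpi replicate B, and replicate C also below 3.5 dpi replicate D. The time course passed, with a largest difference of 0.307 points at 7 dpi (permutation test of F, p = 0.00861, adjusted p = 0.0347), and of 0.152 points without 7 dpi replicate A. The call was lost without uninjured replicate A or B, 1 dpi replicate A, 2 dpi replicate A or B, 3.5 dpi replicate A, or 5 dpi replicate C. It was also lost with the replicate letter as a block. Injured against uninjured the lincRNA percentage did not pass (exact permutation test, p = 0.181, adjusted p = 0.201). In other cells lincRNA was 1.98% ± 0.354 (n = 4) uninjured and 1.44% ± 0.397 (n = 17) injured, well above the type IIx level. Type IIb cells were close to type IIx and had a like course, with means of 0.0887% ± 0.0160 (n = 4) uninjured, 0.170% ± 0.0630 (n = 3) on day 5 and 0.331% ± 0.165 (n = 3) on day 7.

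The time course of UMIs (largest difference -0.91 on the log2 scale at 3.5 dpi, permutation test of F, p = 0.0131, adjusted p = 0.0347) and of the mitochondrial percentage (-6.16 points at 3.5 dpi, p = 0.0235, adjusted p = 0.0392) passed too. That of genes per cell did not (-0.42 at 3.5 dpi, permutation test of F, adjusted p = 0.121). Antisense transcripts, at 0.108% ± 0.00926 (n = 4) uninjured and 0.10% ± 0.0201 (n = 16) injured, and the deposited class bplncRNA, at 0.0214% ± 0.00165 and 0.00946% ± 0.0153, passed in neither comparison (exact permutation tests, adjusted p = 0.458 and 0.201 for injury). The time-course calls of all 7 measures that passed were lost in some alternatives, that of protein-coding genes in the fewest. With the replicate letter as a block 0 of the 10 measures passed (permutation test, 5 at an unadjusted p under 0.05). The mitochondrial one was lost in 19 alternatives and held in 7, and with single mice left out it held only without uninjured replicate D, 1 dpi replicate B or D, or 2 dpi replicate C. That of UMIs was lost in 10 alternatives, that of ribosomal protein genes in 12, that of transcription factor genes in 9, that of lincRNA in 8 and that of protein-coding genes in 2. Without 3.5 dpi replicate A the permutation test called 0 measures (5 at an unadjusted p under 0.05). It called 1, the protein-coding percentage, without uninjured replicate A or B, 1 dpi replicate A, 2 dpi replicate A or B, or 5 dpi replicate C, and 4 without 5 dpi replicate B.

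The injury comparison called 0 measures without uninjured replicate A by the exact permutation test (3 at an unadjusted p under 0.05), 1 without replicate B and 2 without replicate D.

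**Figure D2:**
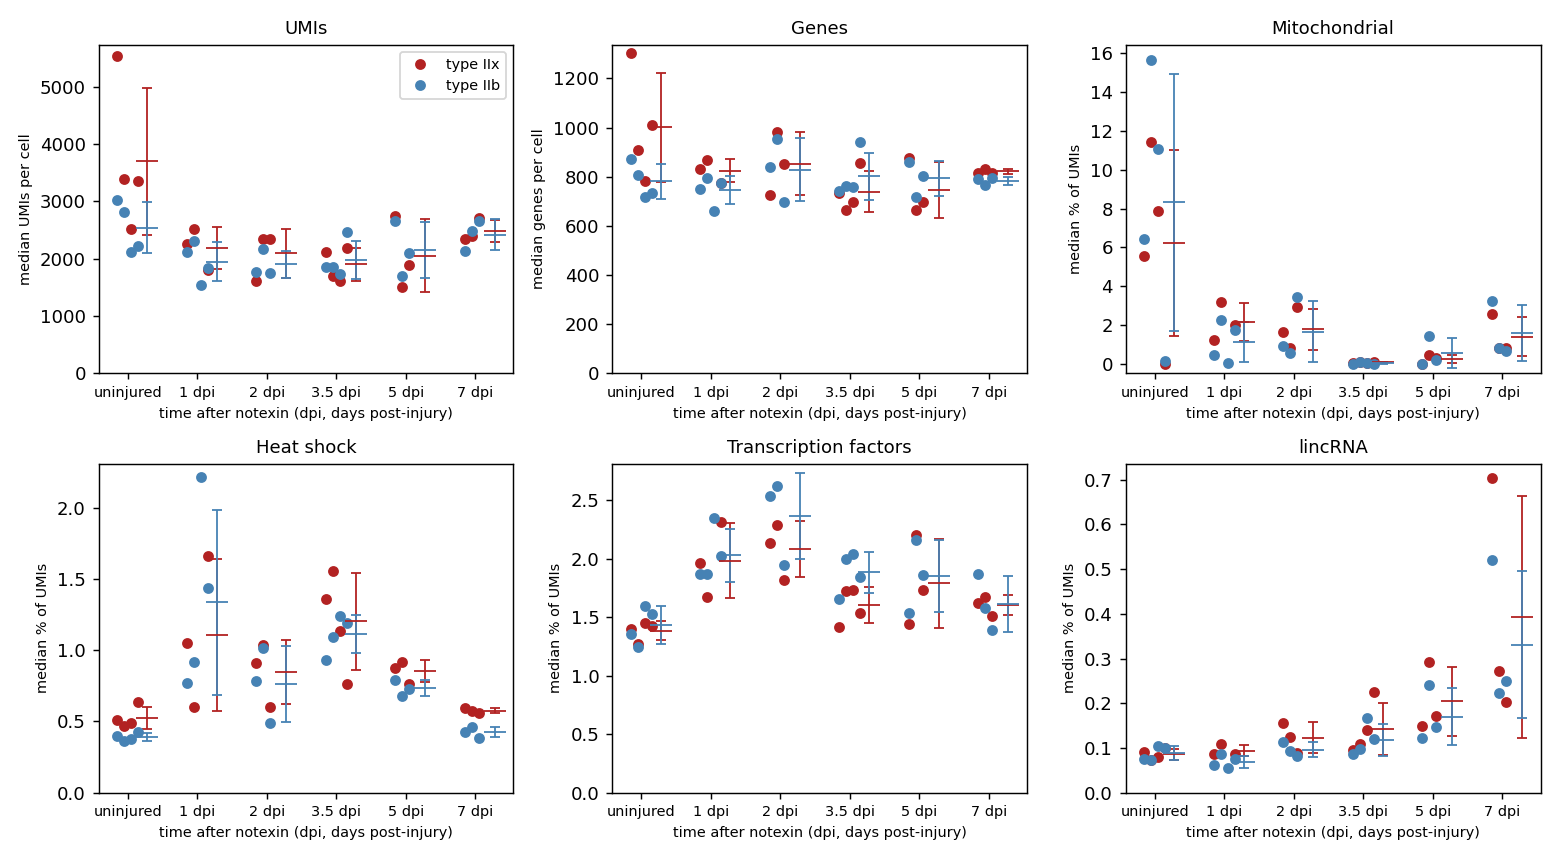
Per-mouse medians of 6 measures over type IIx (red) and type IIb (blue) cells by time after notexin, with the mean and SD beside each group: UMIs, genes, and the percentage of UMIs from mitochondrial, heat shock, transcription factor and lincRNA genes. The mean UMIs of type IIx cells are highest in the uninjured group, mitochondrial percentages are near 0 at 3.5 dpi, and the mean of lincRNA is highest at 7 dpi. Uninjured replicate D lies at 0 mitochondrial percent for type IIx.

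Setting type IIx against type IIb cells of the same mouse asked whether the change with injury differed between the labels. Before injury type IIx cells held more UMIs than type IIb cells in all 4 mice: type IIb medians were 3027, 2816, 2118 and 2213 UMIs. After injury type IIx was higher in 8 of 16 mice and lower in 8. The mean log2 difference, type IIx minus IIb, was 0.50 ± 0.30 (n = 4) uninjured and 0.01 ± 0.16 (n = 16) injured, a change of -0.49 (two-sided exact permutation test, p = 0.00124, adjusted p = 0.00826).

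For genes per cell the mean log2 difference was 0.34 ± 0.22 (n = 4) uninjured, with type IIx higher in all 4 mice, and -0.01 ± 0.14 (n = 16) injured, a change of -0.35 (exact permutation test, adjusted p = 0.00826). Mitochondrial percentages went the other way. They were 6.46%, 15.7%, 11.1% and 0.126% in uninjured type IIb cells, above type IIx in all 4 mice, and the difference moved from -2.10 ± 1.92 points (n = 4) to 0.0709 ± 0.512 (n = 16), a change of 2.17 points (exact permutation test, adjusted p = 0.00826). These 3 of the 10 measures (30%) passed. All 3 calls held without any single mouse. They were lost in cells with at least 750 genes, where the changes were -0.02 for UMIs, -0.03 for genes and 0.866 points for mitochondrial UMIs (exact permutation tests, adjusted p = 0.962, 0.962 and 0.335), and 0 of 10 passed (1 at an unadjusted p under 0.05). For the other 7 measures the change with injury was not shown to differ between the labels.

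The share of type IIx cells moved with some quality values of the libraries, namely saturation among the planned ones and reads in cells, and not with others. Reads in cells were 44.7%, 49.1%, 56.3% and 44.2% of reads in the uninjured libraries and 94.2%, 94.5%, 94.8% and 94.7% at 3.5 dpi, and sequencing saturation 64.9%, 47.4%, 58.1% and 87.4% and 45.9%, 48.0%, 33.5% and 37.0%. Uninjured libraries thus had the fewest reads in cells, apart from 1 dpi replicate B. Across 21 mice the type IIx share had an r of 0.792 and a rho of 0.803 with saturation (permutation tests with 100000 resamples, p = 2.0e-05 for both, adjusted p = 4.0e-05 over 4 values). The r was 0.746 with time point means removed, 0.839 in the 17 injured mice and 0.649 without uninjured replicate D and 1 dpi replicate B. With reads in cells, a value added after seeing the data, r was -0.893 and rho -0.883 (permutation test, p = 1e-05, the smallest the permutations can give, adjusted p = 2.5e-05 over 5 values). That r was -0.858 with time point means removed, -0.924 in the 17 injured mice, -0.789 in 15 of them without 1 dpi replicate B and 7 dpi replicate C, and -0.837 over all mice without uninjured replicates A and D.

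The share had no called relation with the SoupX contamination fraction (r = -0.294, rho = -0.325, permutation tests, p = 0.195 and 0.148, adjusted p = 0.195 and 0.169). With time point means removed the relation was stronger, with an r of -0.424 and a rho of -0.551. That r did not pass (permutation test of r, p = 0.0540, adjusted p = 0.0720), and that rho was not tested. With the median UMIs of other cells r was -0.435 and rho -0.395 (permutation tests, p = 0.0463 and 0.0763, adjusted p = 0.0740 and 0.102), and with time point means removed r was 0.0579. Without the 2 mice farthest from the median of each, r was -0.242 and -0.448. Of the 4 planned values 2 passed, over 8 tests of r and rho. A called cell belongs to the cells that these values describe, and whether the library values set the share, or the reverse, was not tested.

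**Figure D3:**
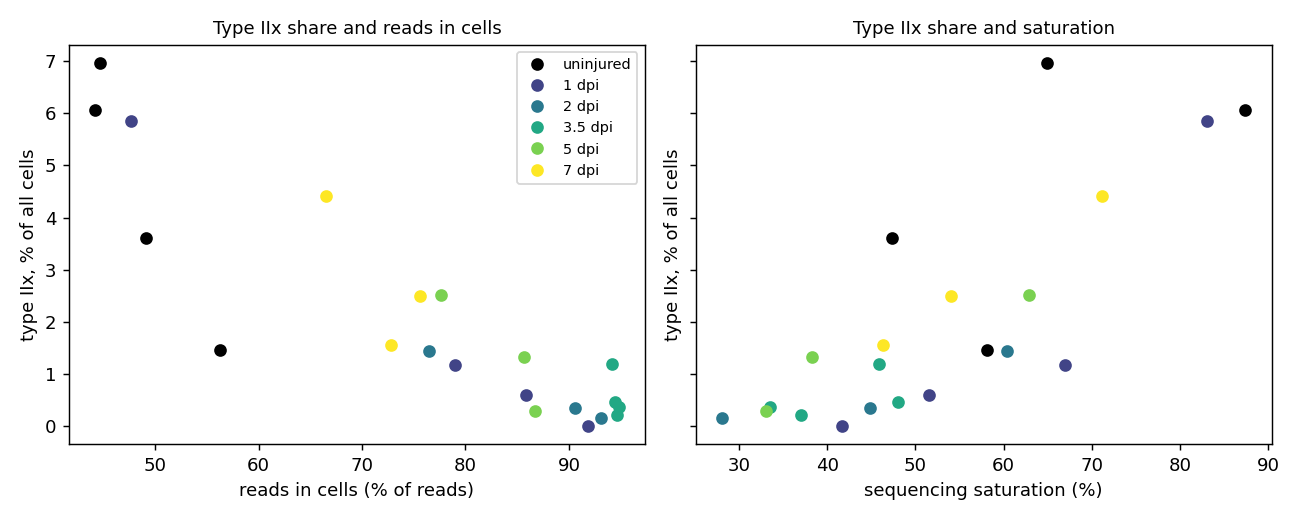
Type IIx cells as a percentage of all cells of each mouse (vertical axis) against the percentage of reads in cells (left) and sequencing saturation (right), coloured by time after notexin. The share is 6.06% in the library with the fewest reads in cells (uninjured replicate D, 44.2%) and 0.371% in that with the most (3.5 dpi replicate C, 94.8%). The highest share is 6.97% (uninjured replicate A, 44.7%) and the lowest is 0% (1 dpi replicate C, 91.8%).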

How the data were processed

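Per-cell tables of 21 samples were used. The authors aligned reads to mm10 with Cell Ranger 3.1.0, subtracted ambient RNA with SoupX, filtered cells in Seurat and then took out doublets found by DoubletFinder. The Seurat version is 3.1.5 in the submitters' processing notes, and the paper names another. UMIs per cell were deposited in units of expected counts, non-whole after SoupX and used unrounded, and were not normalized. Genes per cell and called barcodes were deposited as counts. Percent of UMIs from gene sets, sequencing saturation and reads in cells were deposited as percent values, and SoupX contamination and doublet scores as fraction values computed by the authors. Labels are the authors' deposited annotation. Single-gene values were not used here.

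Cells were counted per mouse using scipy 1.17.1, numpy 2.4.6 and, for tables, pandas 2.3.3 under Python 3.11.15, and drawn with matplotlib 3.10.9. The mouse was the unit. Shares were arcsine square root transformed. Two-group tests were two-sided exact permutation tests, and time courses and correlations used 100000 resamples, with Benjamini-Hochberg adjustment within families at 0.05. Medians needed 5 cells, and myonuclear fractions 10. Depth was 5602464 to 70730171 UMIs per sample. The code was tested on simulated data. Alternatives were other denominators, cell filters, scales, minimums, means, labels, edgeR 4.0.16 (R 4.3.3) on numbers of cells, a replicate block and leaving out each mouse. The text names type IIx, type IIb and every measure tested. Members and lists were chosen with earlier results of these data known. The state rule was applied to type IIb after cells had been counted, and both definitions were run.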

Additional observations from a re-analysis of the deposited data

Results flagged for a closer look

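In 1 of the 27 groups of 4 mice checked, a mouse lay far from its group. The median bplncRNA percentage of type IIx cells was 0.0246% in 3.5 dpi replicate D and 0% in the other 3 mice of 3.5 dpi. That mouse had 8 type IIx cells. With the other 3 medians at 0, any value above 0 would be flagged, however small. A single flag of this kind among 27 groups is no pattern.

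For 3 measures the change with injury differed between type IIx and type IIb cells of the same mice, by a test of the difference itself (two-sided exact permutation test, adjusted p = 0.00826 for each). The change in type IIx minus that in type IIb was -0.49 for UMIs per cell and -0.35 for genes per cell, both on the log2 scale, and 2.17 percentage points for mitochondrial UMIs. Before injury type IIx cells had more UMIs and genes and a lower mitochondrial percentage than type IIb cells in 4 of 4 mice. In cells with at least 750 genes all 3 calls were lost, with changes of -0.02, -0.03 and 0.866 points (exact permutation tests, adjusted p = 0.962, 0.962 and 0.335).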

How the results depend on the processing

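The type IIx share was lower in injured than in uninjured muscle in every setting, in points or on the log2 scale. The difference was -3.09 points among all cells. With other denominators it ran from -15.8 points among myogenic cells to -0.896 points among called barcodes. It no longer passed among non-immune cells (-1.36, adjusted p = 0.458), among called barcodes (-0.896, adjusted p = 0.158; chosen after seeing the data) and with edgeR without TMM (-1.67 log2, adjusted p = 0.0506). Leaving out single mice gave -4.11 to -2.27, and uninjured replicates A and D ended the call. The time course passed with at least 750 genes (-3.63), the stricter filter (-5.56), edgeR without TMM (-3.03 log2) and with TMM (-3.19 log2); single mice left out gave -4.99 to -3.15, with a call without uninjured C, 1 dpi B or 1 dpi C. Late against early reversed among myogenic cells (-1.29); single mice left out gave 0.570 to 1.51, with a call without 1 dpi B. The number of time points called was 0 (exact permutation test, 1 unadjusted), against 1 with at least 750 genes, 3 with a centred log ratio, 2 with edgeR without TMM, 4 with TMM, and 0 to 1 without single mice. The cause was not tested.

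The injury difference in type IIx among myonuclei became -12.7 points with at least 750 genes and 8.79 under labels before filtering, where the time course was 36.3, both reversed. Single mice left out gave -7.53 to -1.99 for injury, with a call without uninjured B or 3.5 dpi C, and -11.9 to -6.31 for the time course. Type IIb cells counted with or without a state left every call as it was. The cause was not tested.

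Of 10 measures, 7 passed over time, 4 with injury and 3 in the comparison with type IIb. With at least 750 genes the numbers were 3, 1 and 0 (1 unadjusted in the last, exact permutation test). With 1500 to 3000 UMIs, chosen after seeing the data, 1 passed with injury, and genes (0.26 over time, 0.0761 with injury) and bplncRNA (0.0237 and 0.00731 points) reversed. Against all other cells in place of type IIb, also chosen later, 6 passed, and transcription factors (1.08) and heat shock (0.369) reversed. Uncalled differences from type IIb also reversed for heat shock with 10 cells or without 3.5 dpi D (0.00186; -0.0578 without 3.5 dpi B) and with means (0.0342), for lincRNA (-0.0618), antisense (-0.00231) and bplncRNA (0.000158) with means, and for ribosomal genes with at least 750 genes (0.0630). Single mice left out gave 0 to 7 calls over time, 0 to 5 with injury (permutation tests, 5 and 3 unadjusted where 0) and 3 against type IIb. The relation with UMIs of other cells reversed with time point means removed (0.0579). The cause was not tested.

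With the replicate letter as a replicate block, 0 measures passed over time (permutation test, 5 unadjusted) and 3 with injury, where transcription factors were lost (adjusted p = 0.0602). The share calls stayed as they were, with an adjusted p of 0.130 over time and 0.0355 with injury. The letters were not seen to pair the samples. Of same-letter pairs of mice, 20 of 48 deviated together by a correlation over 0.1, and the median was -0.0212. Of pairs with different letters 59 of 135 did, and the median was 0.0245. Means in place of medians had no bearing on percentages of cells, and the filter on genes none on the percentage under 750 genes.

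Groups of 3 or 4 mice limit each comparison, and the injury contrasts rest on 4 uninjured mice. Type IIx cells were 8 to 158 per mouse where present, so single-mouse medians are imprecise, and the label was not checked against its marker genes. UMIs per library, saturation, reads in cells, and the part of barcodes filtered out differed in mean with injury and cannot be told apart from it. Shares do not give numbers of cells in the muscle.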

Other observations

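Type IIx cells gave 9.11%, 3.37%, 1.35% and 8.10% of all UMIs of the uninjured libraries, and 0.337%, 0.0870%, 0.0714% and 0.0568% at 3.5 dpi. By 7 dpi the values were 0.915%, 0.973% and 2.00%. The first 2 lay below all 4 uninjured mice and the last below 3 of them.

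The number of UMIs per type IIx cell had a long upper tail. The lowest of the 1161 cells had 1012 UMIs, 95% of them stayed under 15118, and the highest had 128919.

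DoubletFinder scores of type IIx cells had a median per mouse of 0.0556, 0.0700 and 0.0645 at 7 dpi, below those of every other injured mouse. Uninjured replicate B was as low, at 0.0571. In other cells of the same 7 dpi mice the medians were 0.0873, 0.137 and 0.0968.

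In 1 dpi replicate C, which held 0 type IIx cells after Harmony integration, the labels before filtering named 10 cells type IIx and 41 type IIb.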
